A study of Mus musculus with 12 samples.

Results

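Spp1 encodes osteopontin, an acidic phosphoprotein that was first described in bone matrix and is also made by activated immune cells. It exists as a secreted cytokine, which binds integrins and CD44, and as an intracellular form translated from a downstream start. In mouse plasmacytoid dendritic cells the intracellular form is known as a partner of the TLR9 adaptor MyD88 that is needed for full interferon alpha output through IRF7, a transcription factor. The gene was taken as 1 row of 21573 in a table of FPKM values (fragments scaled by transcript length and library depth), by its symbol. It was selected on its FPKM values in these 12 libraries, which were high with CpG and near 0 without. Its own levels are therefore given as a description, without a test, beside the interferon levels of the same libraries.

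The cells were plasmacytoid dendritic cells of bone marrow from BALB/c mice aged 56 to 63 days, kept in culture for 24 h; the labels name a sort but not its gate. The 4 groups of 3 libraries each had 0.5 µM of an oligodeoxynucleotide of class CpG-A, class CpG-B or class CpG-C, or none (control). A palindrome is found in CpG-A, where guanine runs flank it, and in CpG-C, whose backbone is phosphorothioate throughout as in the linear CpG-B. All 3 classes are ligands of the endosomal DNA receptor TLR9. The labels do not say whether replicates came from separate animals, so the p-values below measure only the spread between samples. RNA was measured in bulk, so fewer cells with a transcript and less transcript per cell cannot be told apart, and messages for the secreted and intracellular protein are 1 value.

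The libraries held between 7437 and 10622 genes at 1 FPKM or more, and estimated depths of 23000000 to 27600000 fragments. The plasmacytoid label was checked on 10 markers, which reached 1 FPKM in every case. Siglech, a surface lectin of these cells, stood at 1211 to 2522 FPKM with CpG-A and 1041 to 2402 FPKM with CpG-C, against 2144 to 3241 FPKM in control. With CpG-B it stood at 104 to 253 FPKM, and 6 of the 10 markers fell there (limma, adjusted p below 0.05), beside 2.48% of all tested genes, so each CpG-B value below comes from cells with lower levels of those markers.

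Spp1 (gene 20750) lies on chromosome 5 of mm10, from 104435111 to 104441053 on the plus strand. The table assigns it 6 transcripts, 5 from RefSeq and 1 named by the sequencing provider, the longest of 1517 bases. The 250 bases upstream of its first annotated start (chr5:104434861-104435110, plus strand, RefSeq on GRCm38.p6) are shown because Spp1 was high in every CpG library. Those upstream of Irgm1 (chr11:48871421-48871670, minus strand), an interferon-induced GTPase gene with one of the most similar profiles, are set beside them. Of the most similar genes that were searched, given below, Irgm1 alone held an exact match to the interferon-stimulated response element motif. It thus does not stand for the others. Capitals in Spp1 mark, in order, a match to the interferon-stimulated response element on the minus strand, the RUNX motif AACCACA and the ETS motif AGGAAGT. In Irgm1 they mark overlapping matches to the interferon-stimulated response element.
Spp1: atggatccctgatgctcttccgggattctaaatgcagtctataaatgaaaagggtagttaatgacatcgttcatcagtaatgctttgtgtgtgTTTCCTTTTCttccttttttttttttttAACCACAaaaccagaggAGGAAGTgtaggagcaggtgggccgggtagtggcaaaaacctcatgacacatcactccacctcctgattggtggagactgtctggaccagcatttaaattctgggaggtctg
Irgm1: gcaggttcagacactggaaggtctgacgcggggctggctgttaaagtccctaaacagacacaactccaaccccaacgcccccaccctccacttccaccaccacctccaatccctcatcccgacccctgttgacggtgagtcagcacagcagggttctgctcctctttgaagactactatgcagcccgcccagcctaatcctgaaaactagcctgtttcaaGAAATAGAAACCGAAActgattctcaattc

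Both strands of 32851 RefSeq windows of this length were searched with 7 short motifs. The core of the interferon-stimulated response element, GAAA followed after 2 unspecified bases by GAAA, was in 2.98% of windows, and the Spp1 match began 157 bases before the start. AACCACA, bound by RUNX factors, was in 4.4%, and began 129 bases before the Spp1 start. AGGAAGT, an ETS motif, was in 7.69%, and began 112 bases before it. TATAAA was in 12.4% of windows and matched Spp1 once, 211 bases before the start. The window before Spp1 held no match to the NF-kB motif, GGG followed after 5 unspecified bases by CC (45.8% of windows), the AP-1 motif TGANTCA (6.75%) or the T-box motif TCACACCT (1.12%). In the window before the second annotated start of Spp1 none of the 7 matched. Among the 8 genes most like Spp1, given below, 6 had a window. Of these Irgm1 alone held an exact match to the core of the interferon-stimulated response element. The search misses sites that differ from these letters or lie outside the window, so no match does not mean no element.

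Spp1 transcripts were abundant in every library given CpG and nearly absent without it. With CpG-A, Spp1 stood at 36.7, 157 and 243 FPKM. With CpG-B it stood at 10.4, 121 and 50.7 FPKM, and with CpG-C at 150, 59.9 and 23.2 FPKM. In control it stood at 0.03, 0.19 and 1 FPKM, which the depth estimate puts at about 1, 6.5 and 36 fragments. No CpG library overlapped the control libraries: the lowest of the 9, CpG-B replicate 1, was 10.4 times the highest control.

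**Figure D1:**
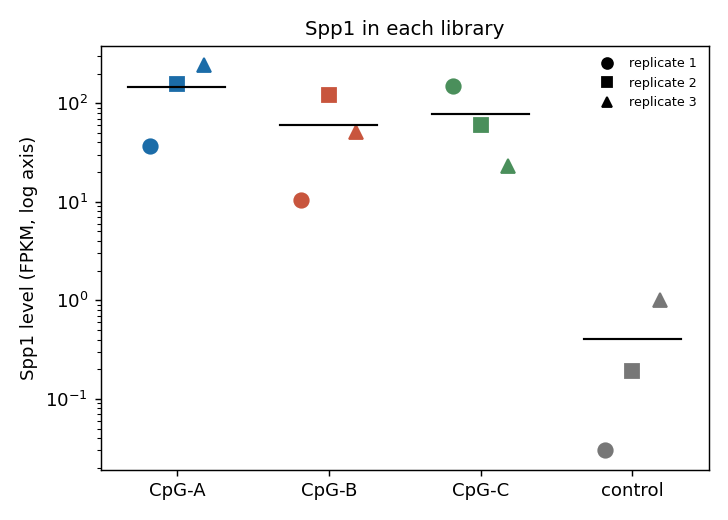
Spp1 level in FPKM (log axis) in each library of the 4 groups, with symbols for replicate numbers and a line at the group mean. The 9 CpG libraries lie between 10.4 and 243 FPKM, above the control libraries, which reach 1 FPKM.

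The mean was 146 ± 104 FPKM with CpG-A, 77.7 ± 65.2 with CpG-C, 60.6 ± 55.7 with CpG-B and 0.407 ± 0.52 in control (SD, n = 3 each). On the log2(FPKM + 1) scale, which understates changes of low values, the means lay above control by 6.39 for CpG-A, 5.49 for CpG-C and 4.95 for CpG-B. The authors' deposited table gives log2 ratios to control of 8.42 for CpG-A, 7.46 for CpG-C and 7.12 for CpG-B. How those ratios were formed is not given in the sources used here.

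Groups of libraries that did not overlap in the higher direction were found for 5.78% of tested genes with CpG-A, 10.1% with CpG-B and 6.64% with CpG-C. Among the CpG classes the libraries of Spp1 did overlap. CpG-A exceeded CpG-B by 1.45 and CpG-C by 0.90 log2 units, and CpG-C exceeded CpG-B by 0.54. The SD within a class was 1.41 log2 units with CpG-A, 1.73 with CpG-B and 1.32 with CpG-C, so CpG-C and CpG-B, neighbours in this order, differed by less than that spread, as did CpG-A and CpG-C. The difference of CpG-A and CpG-B was no clearer, as it lay between the SDs of those classes. It ran from 0.52 to 2.24 with any 1 library left out. Without the 4 libraries numbered 1, CpG-C lay below CpG-B by 1.05 log2 units, so the order of the lower pair turned. It also turned when the first CpG-B library (-0.39) or the first CpG-C library (-0.12) was left out.

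Ranked among all 21573 genes of its library, Spp1 reached place 559 in CpG-A replicate 3, with 2.59% of genes above it. Its places with CpG-A ran down to 2497, with CpG-B from 986 to 4856 and with CpG-C from 878 to 3121. In control it held places 10610 to 12437. The highest library of a class exceeded the lowest 6.63 times with CpG-A, 11.6 times with CpG-B and 6.46 times with CpG-C.

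Osteopontin is grouped with the SIBLING proteins, secreted phosphoproteins of bone and teeth whose genes lie beside it. None of them accompanied Spp1: Ibsp, Dmp1, Dspp and Mepe reached at most 0.07, 0.03, 0.13 and 0.03 FPKM in any library. The flanking genes Sparcl1, a matrix protein gene, and Pkd2, a cation channel gene, reached at most 0.01 and 1.27 FPKM. None of these 6 genes met the minimum for testing, 1 FPKM in 3 libraries.

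Interferon alpha genes were set beside Spp1 as the summed FPKM of the 13 that the table holds. These genes are near-identical copies, so the split of reads between single members is uncertain, while the sum is less exposed to it. With CpG-A the sum was 1252, 47.1 and 651 FPKM. With CpG-B it was 0.55, 93.8 and 19 FPKM, and with CpG-C 167, 87.6 and 191 FPKM. In control it was 0.35, 0.54 and 0 FPKM. The class order of the mean sums, 650 ± 602 for CpG-A, 149 ± 54.3 for CpG-C, 37.8 ± 49.4 for CpG-B and 0.297 ± 0.274 for control (SD, n = 3 each), was that of the Spp1 means. For Spp1, as given above, the order of CpG-C and CpG-B turned with single libraries left out, so no link is read from the shared order.

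Within classes the orders of Spp1 and interferon alpha were not the same. CpG-A replicate 1 had the highest interferon alpha sum of all libraries and the lowest Spp1 of its class. In CpG-A replicate 2 Spp1 stood at 157 FPKM beside an interferon alpha sum of 47.1 FPKM. With CpG-B both followed one order, from replicate 2 through replicate 3 to replicate 1, where Spp1 still stood at 10.4 FPKM with the sum at 0.55. With CpG-C the highest interferon alpha sum and the lowest Spp1 met in replicate 3. The ratio of Spp1 to the sum ran from 0.0293 in CpG-A replicate 1 to 19 in CpG-B replicate 1.

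**Figure D2:**
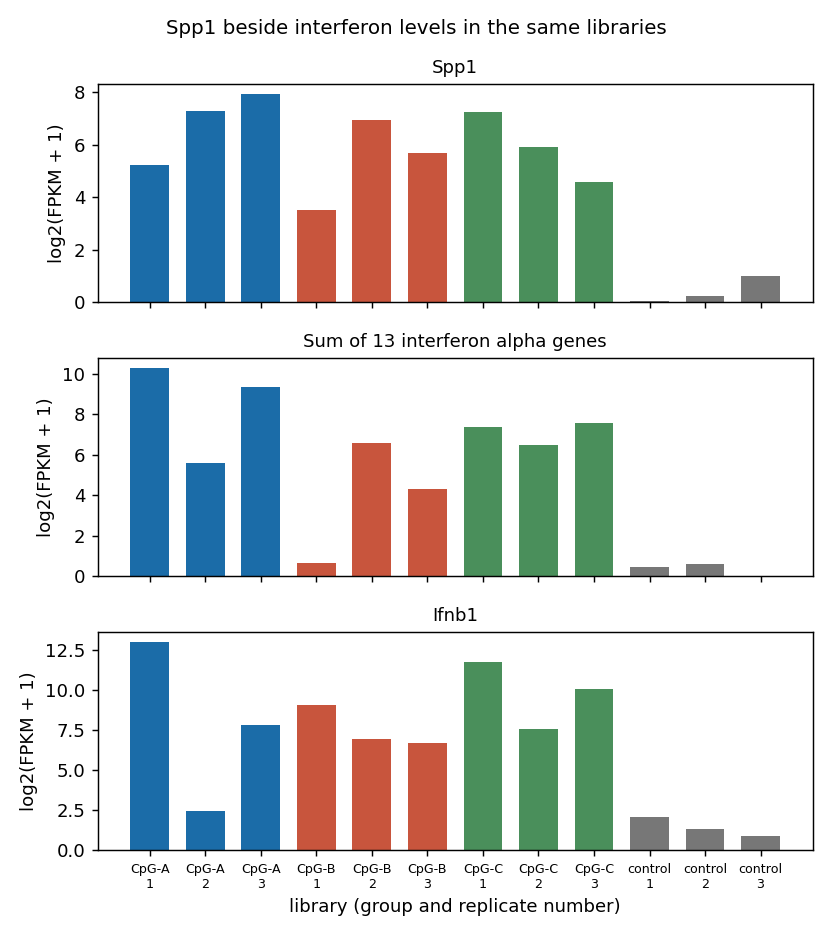
Levels of Spp1, the sum of 13 interferon alpha genes and Ifnb1 as log2(FPKM + 1), 1 bar per library. CpG-A replicate 1 has the highest bars of both interferon panels (1252 and 8054 FPKM) and the lowest Spp1 of the CpG-A libraries (36.7 FPKM).

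Interferon beta, an early type I interferon encoded by Ifnb1, was measured in the same libraries. It stood at 8054, 4.55 and 229 FPKM with CpG-A, at 535, 120 and 104 with CpG-B, at 3405, 189 and 1074 with CpG-C and at 3.23, 1.54 and 0.87 in control. The CpG libraries lay above the control libraries, as did 5.78%, 10.1% and 6.64% of all tested genes with CpG-A, CpG-B and CpG-C. In CpG-A and CpG-B the library with most Ifnb1, replicate 1, was the one with least Spp1, and in CpG-C it was the one with most. CpG-A replicate 2 had 4.55 FPKM of Ifnb1 beside 157 FPKM of Spp1, so a high Spp1 level was measured in a library with little interferon beta message.

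Of 20 type I and III interferon genes listed, 17 were in the table and 12 were tested. With CpG-A 2 rose, against 1.05% of all tested genes called higher. They were Ifna9 at 357, 22.5 and 99.1 FPKM with CpG-A against 0, 0.09 and 0 in control (log2 difference 6.52, SE 1.01, limma adjusted p = 0.00264), and Ifna12 at 8.89, 5.92 and 24.2 FPKM against 0 in each control library (limma adjusted p = 0.00882). The median log2 difference of the 12 was 4.40, beside -0.27 over all tested genes. All 12 met the minimum of 1 FPKM in 3 libraries only with CpG libraries counted. Single members could thus hardly be called lower, and their medians could hardly fall below control. The gap to all tested genes is thus partly set by the filter. The number that rose was 10 without CpG-A replicate 2, 4 without CpG-B replicate 2 and 0 without the 4 libraries numbered 1.

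With CpG-C 2 rose as well, against 1.34% of all tested genes. Ifnb1 rose (log2 difference 8.35, SE 1.78, limma adjusted p = 0.0242), and so did Ifna9, at 44.1, 45.3 and 18.8 FPKM with CpG-C (5.07, SE 1.01, limma adjusted p = 0.0158). Without CpG-C replicate 1 or control replicate 2 limma called 0, and without CpG-C replicate 2 or 3 or control replicate 1 or 3 it called 1. The median over the 12 was 1.41, beside -0.22 over all tested genes, with the same limit from the filter. With CpG-B limma called 0 of the 12, where 3.26% of all tested genes were higher and 2.48% lower. At an unadjusted limma p below 0.05, 11 of the 12 passed with CpG-A, 2 with CpG-B and 4 with CpG-C. The share of all tested genes at that unadjusted level was not counted. Ifnb1 missed the threshold with CpG-B (log2 difference 6.12, SE 1.78, limma adjusted p = 0.06). It passed when CpG-A replicate 1 (0.00699) or 2 (0.00671) was left out of the shared limma fit, under upper quartile scaling (0.0457), library weights (0.0108) and a fit of the 2 groups alone (0.00261). With CpG-A Ifnb1 passed without CpG-A replicate 2 (limma adjusted p = 0.00276, against 0.104 with it).

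The other members are given by their means. Ifna2 averaged 123 ± 119 FPKM with CpG-A, 9.06 ± 14.8 with CpG-B and 70.9 ± 67.3 with CpG-C, and was listed at 0 in control (SD, n = 3 each). It was at 0 in CpG-A replicate 2, a library with 157 FPKM of Spp1. Ifna4, Ifna6, Ifna7, Ifna11 and Ifna14 averaged 11.6 to 141 FPKM with CpG-A, and at most 0.0567 FPKM in control. The CpG-A mean of Ifna1 was 7.83 FPKM and its control libraries were all listed at 0, while Ifna5, Ifna13 and Ifnab reached 1 FPKM in at most 2 libraries each. Of the type III genes, Ifnl2 averaged 160 ± 260 FPKM with CpG-A, 25.3 ± 11.5 with CpG-B, 6.91 ± 12 with CpG-C and 0.09 ± 0.156 in control. Ifnl3 reached 48.1 FPKM in CpG-A replicate 1 and 57.4 in CpG-C replicate 3.

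Receptors of secreted osteopontin were measured in the same cells. CD44, a surface glycoprotein that binds hyaluronan and osteopontin, was the most abundant of them, and Cd44 rose with each class. It stood at 388, 254 and 172 FPKM with CpG-A, 260, 297 and 296 with CpG-B, 452, 293 and 356 with CpG-C and 47.5, 94.7 and 63.3 in control, with no overlap between CpG and control libraries. Over all tested genes 5.78% lay above control without overlap with CpG-A, 10.1% with CpG-B and 6.64% with CpG-C. The log2 difference of Cd44 was 1.95 for CpG-A (SE 0.386, limma adjusted p = 0.0157), 2.09 for CpG-B (SE 0.386, limma adjusted p = 0.00421) and 2.44 for CpG-C (SE 0.386, limma adjusted p = 0.0027). The limma call for CpG-A ended when its replicate 1 was left out (adjusted p = 0.0791), as it did without the first control library (0.0617) or all 4 libraries numbered 1 (0.154).

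Of the 11 receptor chains listed, 10 were in the table and 7 were tested. Cd44 was the 1 chain that rose with CpG-A and with CpG-C, and 2 rose with CpG-B, the other being Itga5, the fibronectin receptor alpha chain. Over all tested genes 1.47% were called in either direction with CpG-A, 5.75% with CpG-B and 1.86% with CpG-C. Itga5 was low, at 2.42, 3.47 and 2.74 FPKM with CpG-B against 0, 0 and 0.25 in control (log2 difference 1.84, SE 0.497, limma adjusted p = 0.0417). Leaving out any of 9 of the 12 libraries ended that call. Itga5 met the minimum for testing only through CpG libraries, so it could hardly be called lower. The median log2 difference of the 7 chains was 0.24 with CpG-A, -0.23 with CpG-B and -0.11 with CpG-C.

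Itgb7, the beta chain of the gut-homing integrin that also binds osteopontin, was below control in all 9 CpG libraries. Over all tested genes 11% were below control without overlap with CpG-A, 15.6% with CpG-B and 11.2% with CpG-C. It stood at 4.88, 0.09 and 5.88 FPKM with CpG-A, 7.1, 0.91 and 7.39 with CpG-B and 2.72, 2.7 and 4.07 with CpG-C, against 31.1, 44.6 and 45.8 in control. The log2 differences of -3.54, -3.02 and -3.31 (SE 0.88 each) missed the threshold for CpG-A, CpG-B and CpG-C (limma adjusted p = 0.0642, 0.0606 and 0.0746), and passed it where 5 was added in place of 1 (0.0171, 0.014 and 0.0162) or libraries were weighted (0.048, 0.0311 and 0.0307). Without CpG-A replicate 2 the CpG-B and CpG-C differences passed as well (limma adjusted p = 0.033 and 0.041). Its partner Itga4, the alpha chain shared with the VCAM1-binding integrin, stood at 87.8, 30.6 and 18.2 FPKM with CpG-A and 40.2, 27.8 and 21.5 with CpG-C. Both sets lay above control, at 6.19, 16.1 and 13.5 FPKM, and neither was called (log2 differences 1.64 and 1.30, SE 0.66, limma adjusted p = 0.307 and 0.436). Of all tested genes 5.78% lay above control in this way with CpG-A and 6.64% with CpG-C. With CpG-B Itga4 averaged 7.6 ± 1.7 FPKM (SD, n = 3).

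The chains of the classical osteopontin receptor, the vitronectin receptor, were low. Itgav averaged 1.26 ± 1.21 FPKM with CpG-A, 2.86 ± 2.15 with CpG-B, 1.07 ± 0.794 with CpG-C and 3.3 ± 2.44 in control. Itgb3 averaged 4.5 ± 3.06 FPKM with CpG-A and 7.66 ± 7.95 FPKM with CpG-C, against 1.75 ± 0.673 FPKM in control. In the 3 CpG-B libraries it was at 0.01, 0.01 and 0.08 FPKM, below each control library, and was not called (log2 difference -1.38, SE 0.866, limma adjusted p = 0.431). Of all tested genes 15.6% lay below control without overlap with CpG-B. Itgb1, the common beta chain, averaged 15.2 to 19.1 FPKM in the CpG classes and 20.5 ± 3.8 in control. Itga9 reached 1.28 FPKM at most, and Itga8 and Itgb5 0.01 and 1.36 FPKM.

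**Figure D3:**
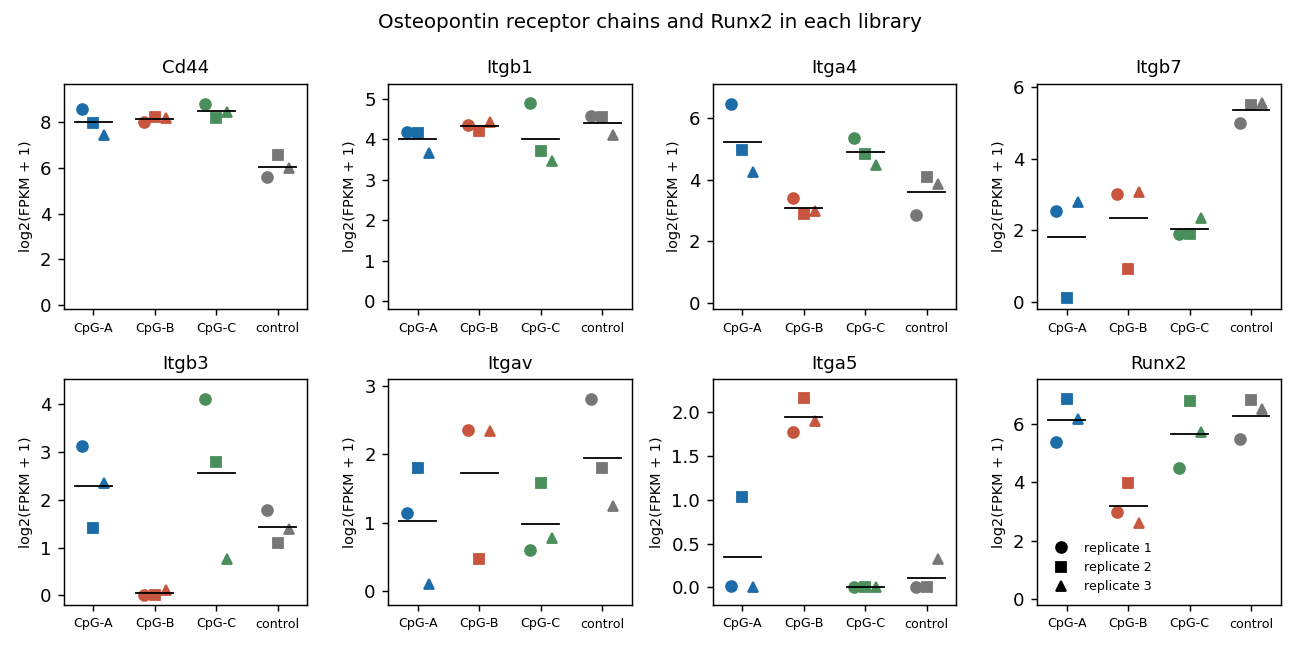
Levels of 7 osteopontin receptor chains and of Runx2 as log2(FPKM + 1) in each library, with symbols for replicate numbers and a line at the group mean of these log2 values. Cd44 lies at 172 to 452 FPKM in the CpG libraries and 47.5 to 94.7 in control, and Itgb7 at 0.09 to 7.39 and 31.1 to 45.8.

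Enzymes that cut, cross-link or modify osteopontin were scarce. Of the 10 listed, 5 were in the table and only Acp5, the tartrate-resistant phosphatase that removes osteopontin phosphates, was tested. It stood at 0, 0.03 and 0 FPKM with CpG-A, 13.9, 6.87 and 19.4 with CpG-B, 0, 0.92 and 9.17 with CpG-C and 20.8, 0.86 and 1.59 in control, and limma called no comparison (0 with an unadjusted p below 0.05). Fam20c, the secretory kinase that phosphorylates osteopontin, reached 0.42 FPKM at most. Mmp9 and Tgm2, a gelatinase and a transglutaminase, reached 0.03 and 0.25 FPKM, and Mmp2, another gelatinase, 8.36 FPKM in CpG-C replicate 1.

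Transcription factors with known roles at Spp1 in other cells were described by 14 genes, of which 12 were tested. With CpG-A and CpG-C, where 1.47% and 1.86% of all tested genes were called, limma called 0 of the 12 in each (1 each at an unadjusted p below 0.05). With CpG-B it called 2, beside 5.75% of all tested genes. Runx2, which drives Spp1 in bone and is also expressed by plasmacytoid dendritic cells, fell with CpG-B. It stood at 6.83, 14.9 and 5.05 FPKM there, against 44 to 113 in control (log2 difference -3.09, SE 0.657, limma adjusted p = 0.0108), and the call ended without control replicate 2 (adjusted p = 0.058). With CpG-A it stood at 40.3 to 114 and with CpG-C at 21.4 to 110 FPKM. CpG-B replicate 2 had 121 FPKM of Spp1 beside 14.9 of Runx2, and CpG-A replicate 2 had 157 beside 114.

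Myc, a growth-related transcription factor, rose with CpG-B, at 17.4, 24.8 and 49.4 FPKM against 0 in each control library (limma adjusted p = 0.017). That limma call ended when replicate 2 or 3 of CpG-B, or of control, was left out (adjusted p between 0.0533 and 0.0728). With control at 0, Myc met the minimum for testing only through CpG libraries and could not be called lower. Tbx21, which encodes T-bet, needed for Spp1 in mouse T cells, was at 0 in 6 of the 9 CpG libraries and at 17, 0 and 2.33 FPKM in control. Nfkb1, an NF-kB subunit, averaged 20.5 ± 2.47 FPKM with CpG-A and 36.7 ± 6.67 FPKM with CpG-C, against 8.15 ± 6.66 FPKM in control, without a call (limma adjusted p = 0.351 and 0.108). With CpG-B it averaged 8.57 ± 2.95 FPKM. Across receptors, enzymes and transcription factors, 20 genes were tested. Of these 1 rose with CpG-A, 3 rose and 1 fell with CpG-B and 1 rose with CpG-C, where 1.47%, 5.75% and 1.86% of all tested genes were called.

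The route in which intracellular osteopontin is known to act, from TLR9 through MyD88 to IRF7, was described by 15 genes, all of them tested. Irf7 rose with CpG-A, at 949, 530 and 1692 FPKM, against 91.7, 35.4 and 283 in control (log2 difference 3.27, SE 0.615, limma adjusted p = 0.0107). It also rose with CpG-C, at 817, 841 and 1143 FPKM (3.23, SE 0.615, limma adjusted p = 0.0117). With CpG-B, at 309, 341 and 750 FPKM, it lay above control and missed the threshold (2.13, SE 0.615, limma adjusted p = 0.0583). Of all tested genes 10.1% lay above control without overlap with CpG-B. In limma these Irf7 calls were lost without CpG-A replicate 3 (adjusted p = 0.0606) or CpG-C replicate 3 (0.0661). Both were lost without the 4 libraries numbered 1 (0.188 for CpG-A, 0.158 for CpG-C). The CpG-B miss became a call under median-of-ratios scaling (0.0248), upper quartile scaling (0.0315) and library weights (0.0399), and without control replicate 3 (0.00793).

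Rsad2, which encodes viperin, an interferon-induced protein that also promotes TLR9 signalling to IRF7, rose with each class. It met the minimum for testing only through CpG libraries, so it could hardly be called lower. It averaged 53.9 ± 35.5 FPKM with CpG-A, 63.5 ± 32 with CpG-B, 63.4 ± 12.3 with CpG-C and 0.0567 ± 0.0252 in control (log2 differences 5.52, 5.82 and 5.91, SE 0.596; limma adjusted p = 0.000125, 3.82e-05 and 5.55e-05). Slc15a4, an endolysosomal transporter needed for TLR9 responses in these cells, fell with CpG-B, at 6.54, 1.15 and 14.3 FPKM against 57 to 76.3 in control (log2 difference -3.43, SE 0.696, limma adjusted p = 0.00772). Tlr9 averaged 4.05, 2.84 and 6.11 FPKM with CpG-A, CpG-B and CpG-C, and 4.75 in control. Myd88 averaged 32.3, 42.3 and 42.6 FPKM in the same classes, and 34.6 in control. Neither was called in any comparison (limma adjusted p between 0.743 and 0.999). The remaining 10 genes of the route were not called either. The route thus had 2 calls of 15 with each class, Rsad2 among them each time. Called among all tested genes were 1.47% with CpG-A, 5.75% with CpG-B and 1.86% with CpG-C. Its median log2 difference was -0.20 with CpG-A, -0.72 with CpG-B and 0.11 with CpG-C, beside -0.27, -0.25 and -0.22 over all tested genes.

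Sct encodes secretin, another secreted peptide, and rose with each class (limma adjusted p = 0.000196 for CpG-A, 0.00261 for CpG-B and 0.000248 for CpG-C). Sct averaged 2539 ± 885 FPKM with CpG-A, 383 ± 167 with CpG-B, 1867 ± 417 with CpG-C and 25.1 ± 41.2 in control (log2 differences 8.40, 5.61 and 7.99, SE 0.963). Isg15, a ubiquitin-like interferon-induced gene, averaged 84.1 ± 49.6, 123 ± 7.8 and 127 ± 62.8 FPKM in the same classes and 2.94 ± 4.69 in control. It rose with each (log2 differences 4.88, 5.68 and 5.56, SE 0.79; limma adjusted p = 0.00348, 0.000501 and 0.00108). Without the 4 libraries numbered 1 the Isg15 calls for CpG-A (0.138) and CpG-C (0.0701) were lost, and without a filter that for CpG-A (0.0513).

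Likeness to Spp1 was measured as Pearson's r of log2(FPKM + 1) across the 12 libraries, for 11640 other tested genes. It is given as a description, since libraries of a group share their treatment and the step from control to CpG dominates it. The most similar named genes were Pydc4 (r = 0.961), a PYHIN family gene, Sco1 (0.956), a mitochondrial copper chaperone, and Apod (0.948), a lipocalin. They were followed by Ifi204 (0.936), Ifi47 (0.93), Ifi44 (0.929), Inpp5b (0.928), an inositol phosphatase gene, and Irgm1 (0.921). Ifi204, Ifi47, Ifi44 and Irgm1 are interferon-induced genes. Pydc4 stood at 103, 110 and 177 FPKM with CpG-A, 13.8, 71 and 57.1 with CpG-B, 176, 118 and 80.9 with CpG-C and 0.5, 0.86 and 3.86 in control. Its lowest CpG library was that of Spp1, CpG-B replicate 1, and its control libraries had the order of Spp1. Pydc4 was picked by its r over these same 12 libraries, so such shared orders follow in part from the pick.

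Single interferon genes were less similar over the 12 libraries, and r with the interferon alpha sum was not computed. Ifna9 had r = 0.682 (place 279 of 11640), Ifna11 0.674, Ifna4 0.624, Ifna6 0.619 and Ifna2 0.576, while Ifnb1 had 0.58 (place 539) and Ifnl3 -0.01. Interferon-induced genes from the set followed throughout came closer than these single genes, with Rsad2 at 0.861 (place 50), Isg15 at 0.818 and Irf7 at 0.81. Sct had r = 0.893 (place 25), Cd44 0.794 (place 119) and Runx2 -0.18. The most opposite named genes were Zfp652 (r = -0.93), Ubxn6 (-0.91), Mei4 (-0.91) and Matn2 (-0.91). Matn2, a matrix protein gene, stood at 0 to 0.33 FPKM with CpG-A, 0.21 to 0.57 with CpG-B, 0.27 to 0.8 with CpG-C and 11.7 to 19.6 in control.

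**Figure D4:**
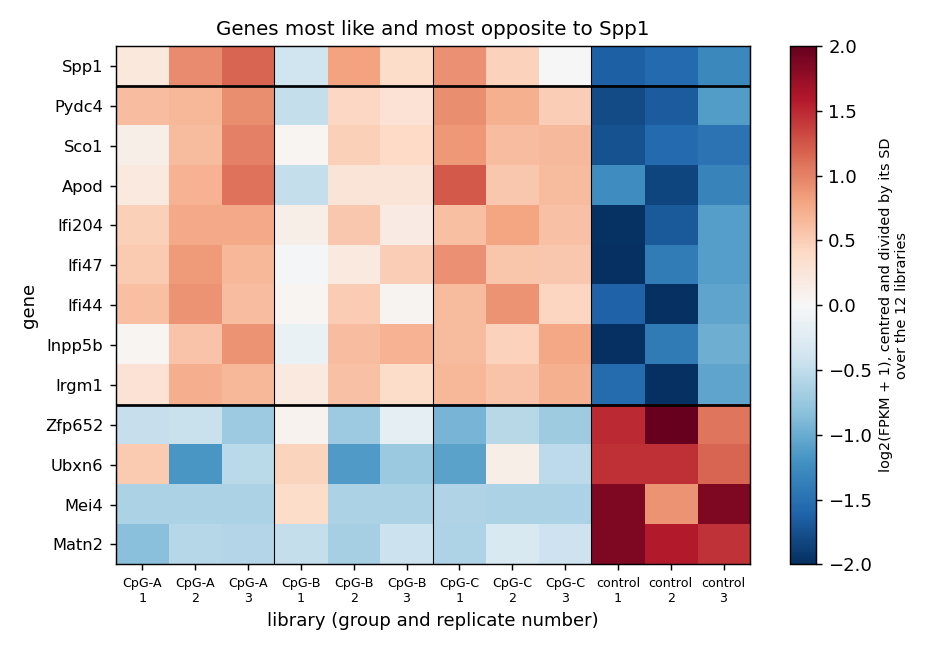
Log2(FPKM + 1) of Spp1, the 8 most similar and the 4 most opposite named genes in the 12 libraries, each row centred and divided by its SD, with colours ending at -2 and 2. Spp1 and each of the 8 similar genes are low in the control libraries and have their lowest CpG value in CpG-B replicate 1. The genes were picked by their r with Spp1 over these same libraries.

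Over the 9 CpG libraries alone r was -0.23 for Rsad2, -0.27 for Isg15 and 0.305 for Irf7, each lower than over the 12. It was -0.27 for Cd44 and -0.36 for Ifnb1. Among interferon alpha genes it ran from 0.143 for Ifna2 to 0.627 for Ifna4. The most similar named genes were Rab29 (0.929), a small GTPase, Sfxn3 (0.905), Adck2 (0.881), Pon3 (0.879) and Cnnm3 (0.874). Picking the highest of 11640 genes over only 9 libraries can by itself give values of r this high, so no link to Spp1 is read from them. Rab29 stood at 55.9, 132 and 133 FPKM with CpG-A, 15.9, 75.2 and 57.5 with CpG-B, 158, 80.6 and 52.5 with CpG-C and 79.5, 24 and 43.9 in control, so it followed Spp1 among CpG libraries without being low in control.

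With each group's mean taken away, the libraries that deviated with Spp1 were matched best by Socs4 (r = 0.949 over 12 libraries), a suppressor of cytokine signalling gene, Apex2 (0.913), Dolk (0.911), Rmnd1 (0.909) and Tlcd1 (0.896). They were low: their highest library was between 11.9 FPKM for Apex2 and 23.5 for Dolk. These genes too were picked as the highest of 11640, which can by itself give such values of r. On the same measure Ifnb1 had r = -0.43, Ifnl3 -0.69, Ifna1 0.615 and Ifna4 0.589. Ifna2, Ifna9, Ifna12 and Ifna14 lay between -0.06 and 0.03.

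Spp1 is also a marker of macrophages, osteoclasts and osteoblasts, so markers of other cells were set beside it. Of 12 monocyte and macrophage markers in the table, 6 reached 1 FPKM in some library, among them Ccr2 (up to 480 FPKM), Cd14 (30.5), Lyz2 (3.28) and Fcgr1 (2.87). Adgre1, Csf1r, Mertk, C5ar1 and Gpnmb were below 1 FPKM in every library, and Adgre1 and Csf1r reached 0.01 and 0.26 FPKM. The summed level of this list was 11070 to 19437 FPKM with CpG-A, 1518 to 5731 with CpG-B, 11224 to 16490 with CpG-C and 5647 to 11114 in control, most of it Ly6c2 and Cd68. Osteoclast markers summed to 0 to 0.05, 6.89 to 19.4, 0 to 9.17 and 0.86 to 20.9 FPKM in CpG-A, CpG-B, CpG-C and control, nearly all Acp5, with the other 5 in the table below 1 FPKM. Osteoblast and stroma markers summed to 0.37 to 3.07 FPKM with CpG and 1.04 to 1.91 in control.

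Natural killer and T cells can also make osteopontin. The natural killer list, with all 8 markers detected, summed to 378 to 507 FPKM with CpG-A, 929 to 5155 with CpG-B, 142 to 437 with CpG-C and 21.5 to 771 in control. Its member Ncr1 rose with each class, to 38.5 ± 26 FPKM with CpG-A, 74.6 ± 24.5 with CpG-B and 13.9 ± 9.64 with CpG-C, against 0.04 ± 0.0346 in control (SD, n = 3 each; limma adjusted p = 0.00109, 0.000116 and 0.0142). Ncr1 met the minimum for testing only through CpG libraries, so it could hardly be called lower. In the whole list 1 of 8 rose with CpG-A, 2 with CpG-B and 1 with CpG-C. Over all tested genes 1.05%, 3.26% and 1.34% were called higher in these classes. The median log2 difference of the 8 markers was -0.17 with CpG-A, 2.71 with CpG-B and 0.03 with CpG-C, so Ncr1 does not stand for the list. T cell markers summed to 193 to 229, 265 to 404 and 262 to 310 FPKM in CpG-A, CpG-B and CpG-C and 122 to 135 in control. Most of each sum was Cd8a and Cd4. In some library 6 of the 7 measured T cell markers reached 1 FPKM, Cd3d up to 34.6 and Cd3g up to 40.9 FPKM, while Cd3e reached 0.34 FPKM at most. B cell, neutrophil and conventional dendritic cell lists reached 200, 19.4 and 344 FPKM with CpG and 119, 17.1 and 689 in control. The part of natural killer or T cells in the Spp1 level was not tested.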

How the data were processed

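Values were the authors' deposited FPKM, 1 column per library, rounded to 2 decimals. The build is mm10, and RSEM 1.2.8, GATK, StringTie, Bowtie2 2.2.5 and HISAT are listed without roles, per the submitters' processing notes. The authors' deposited log2 ratios were copied for Spp1 only. Of 21574 lines 1 was broken and left out, and 24 symbols turned into dates were restored from gene numbers.

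The log2 of FPKM + 1 was analysed. The 11641 genes with at least 1 FPKM in 3 libraries were fitted over all 12 libraries, 1 mean per group, with limma 3.58.1 (R 4.3.3), a mean-variance trend and Benjamini-Hochberg adjustment over all genes tested; calls are at an adjusted p below 0.05. The fit was tested on simulated data. Depth was estimated from whole-fragment steps: 55.8% to 72.1% of low values of short genes lay within 0.1 of a whole number, so it is rough, and no counting intervals are given. An exact permutation test of 3 against 3 cannot go below 0.1. The deposited transcript length in bases served this estimate only.

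Spp1, the lists and the naming rule were chosen with earlier results of these data known. Named were Spp1, the genes most like and most opposite to it by r (predicted and clone names left out), interferons reaching 1 FPKM, Cd44, Itgav, Itgb1, Itgb3, Itga4, Itga9, Runx2, Tbx21, Tlr9, Myd88, Irf7, Rsad2, Isg15 and Sct, and up to 4 called members of each list. Itgb7, Nfkb1, Acp5, the untested enzymes and neighbours, and single markers fall outside this rule and were chosen after their values were seen. One item of a marker list is not reported here.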

Additional observations from a re-analysis of the deposited data

How the results depend on the processing

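Spp1 lay above control with each class under the settings run for it, which were the added constant, both scalings, the block and libraries left out. Adding 0.01, 0.1 or 5 gave log2 differences of 9.12, 8.34 and 4.46 for CpG-A, 7.64, 6.86 and 3.14 for CpG-B and 8.21, 7.42 and 3.61 for CpG-C. With any 1 library left out they were 5.84 to 7.19, 4.17 to 5.88 and 4.83 to 6.15. Without the 4 libraries numbered 1 CpG-A exceeded CpG-C by 2.36 and CpG-C against CpG-B was -1.05.

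Counts of called genes were 171, 669 and 217 for CpG-A, CpG-B and CpG-C. With any 1 library left out they were 119 to 187, 389 to 766 and 106 to 237, interferons 2 to 10, 0 to 2 and 0 to 3, osteopontin partners (receptors, enzymes and transcription factors) 0 to 1, 1 to 5 and 1 to 2, and the TLR9 route 1 to 2, 2 to 3 and 1 to 2. Without the 4 libraries numbered 1, CpG-A had 86 genes, 0 interferons, 0 partners and 1 gene of the route, CpG-B 1 interferon, and CpG-C 105 genes, 0 interferons and 1 gene of the route. Without a filter there were 102, 440 and 118 genes, 0 interferons for CpG-C and 1 gene of the route each for CpG-A and CpG-C. Library weights gave 1063 genes for CpG-B and 406 for CpG-C, 4 and 2 interferons for CpG-A and CpG-B, and 2, 7 and 2 partners. Fitting only the 2 groups compared gave 19 genes, 0 interferons, 0 partners and 0 route genes for CpG-A, 2 interferons for CpG-B, and 78 genes and 1 route gene for CpG-C. Adding 5 gave 2 partners for CpG-A and CpG-C and 1 interferon for CpG-C, and upper quartile scaling 1 interferon for CpG-B. The cause of these changes was not tested.

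Same-numbered libraries deviated together, with small values of r (0.061 to 0.17 over 18 pairs). Among libraries of other groups, each of the 12 was most like another of its number. The labels name no such pairing, and the main fit leaves it out. A replicate block gave 285 genes, 4 interferons and 2 partners for CpG-A, 1 interferon for CpG-B and 2 partners for CpG-C. With the block the misses of Itgb7 became calls (limma adjusted p = 0.0371, 0.0349 and 0.045 for CpG-A, CpG-B and CpG-C), as did those of Irf7 with CpG-B (0.00514) and of Ifnb1 with CpG-A (0.0235) and CpG-B (0.0119). Median-of-ratios scaling put the median log2 difference of all tested genes at -0.12, 0 and -0.08 for CpG-A, CpG-B and CpG-C, beside -0.27, -0.25 and -0.22 unscaled. Of 3360 single gene results under an alternative, 56 lost a call, 49 gained one and 0 turned.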
